A study of Homo sapiens with 9 samples.

Results

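The centromeric kallikreins are 5 serine protease genes, KLK1, KLK15, KLK3, KLK2 and KLK4, that lie side by side on human chromosome 19 over 91.6 kb. They were taken by symbol as 5 of the 25142 entries in the deposited expression table. Polyadenylated RNA was sequenced from LNCaP cells, a prostate cancer line grown from a lymph node metastasis, in 9 libraries with 3 biological replicates per group. Wells of equal cell number were starved of steroids for 24 h in medium with 5% charcoal-treated serum and then treated for 18 h. The vehicle group received DMSO, the R1881 group received 1 nM of R1881, a synthetic androgen that is poorly metabolised, and the MEL-6 group received 1 nM R1881 together with 10 µM of MEL-6, a compound given here by its code name. In these samples MEL-6 was always given with R1881, so its effect on starved cells was not measured. The comparisons ask how androgen and MEL-6 change the expression of these genes. LNCaP is a single line, known to respond to androgen and also to some other steroids.

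Kallikreins are secreted proteases made as inactive precursors, and several of them activate each other by clipping off a short propeptide. In the prostate, luminal epithelial cells release them into seminal fluid, where they break down the gel proteins of semen and are held in check by serpins and other inhibitors. Androgen acts on KLK3 through response elements in its promoter and in an upstream enhancer, and the KLK3 product, prostate-specific antigen, is the blood marker used to follow prostate cancer.

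The promoters of the most abundant members are shown first because some of them hold a known androgen response element. RefSeq start sites on GRCh38.p14 gave windows of 300 bases, from 250 before the start to 50 after it, for 4 of the 5 genes. KLK3 lies on the plus strand with its window at chr19:50854665-50854964, KLK2 on the plus strand at chr19:50873189-50873488, and KLK4 on the minus strand, where the window of the upstream start is shown, at chr19:50911346-50911645. Each is printed 5′ to 3′ in the direction of its gene. Capitals mark the 15-base element in KLK3 and KLK2, and in KLK4 the 6 letters GGAACA.
KLK3: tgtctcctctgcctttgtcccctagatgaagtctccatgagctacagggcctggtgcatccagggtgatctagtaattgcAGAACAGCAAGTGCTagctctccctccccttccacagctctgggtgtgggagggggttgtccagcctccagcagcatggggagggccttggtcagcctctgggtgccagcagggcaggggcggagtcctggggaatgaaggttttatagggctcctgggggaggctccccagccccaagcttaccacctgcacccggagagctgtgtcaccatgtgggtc
KLK2: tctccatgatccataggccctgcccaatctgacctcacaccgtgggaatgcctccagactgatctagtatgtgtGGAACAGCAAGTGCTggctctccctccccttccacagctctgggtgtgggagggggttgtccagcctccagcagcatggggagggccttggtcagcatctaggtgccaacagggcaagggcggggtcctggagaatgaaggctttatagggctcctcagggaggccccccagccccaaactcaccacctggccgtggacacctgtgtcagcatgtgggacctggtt
KLK4: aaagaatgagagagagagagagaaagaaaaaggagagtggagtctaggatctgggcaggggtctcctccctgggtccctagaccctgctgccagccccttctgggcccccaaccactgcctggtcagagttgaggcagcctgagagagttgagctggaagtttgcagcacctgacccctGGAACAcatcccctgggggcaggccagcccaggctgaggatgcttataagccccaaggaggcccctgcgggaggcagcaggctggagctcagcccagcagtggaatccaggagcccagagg

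The KLK3 capitals, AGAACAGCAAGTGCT, are the proximal androgen response element known from reporter studies, and they stood at -170 to -156 from the start. KLK2 held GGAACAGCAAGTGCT at -176 to -162, which differed from the KLK3 element by the substitution A1G, counted from 1 at the element's 5′ end. Both strands of 35116 RefSeq windows of the same length were searched for this element. The 1 window that held it exactly (0.00285%) was that of KLK3, from which the element was taken. With at most 1 mismatch it was in 7 windows (0.0199%), those of KLK3 and KLK2 among them, so these shares are not a background free of the members. The closest match in the KLK4 windows had 5 mismatches and in the KLK15 windows 6. The palindromic form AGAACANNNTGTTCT was in 1 of the 35116 windows and in none of these genes. The GGAACA in KLK4 lay at -71 to -66, and a match of 6 letters is common: AGAACA, the start of the KLK3 element, was in 14.8% of all windows on either strand.

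KLK3 and KLK2 were alike around the element as well. Over 287 aligned columns their windows were identical at 251 (87.5%), with an unbroken shared run of 80 bases that began just downstream of the element, at -154 in KLK3 and -160 in KLK2. Between all other pairs of windows identity was 67.3% to 76.0% and the longest shared run 8 to 11 bases. Gaps at the ends were free in these alignments and gap columns were not counted, which raises the identity of unlike windows. The letters TATAAA, the core of a TATA box, were present on the minus strand at -28 to -23 in KLK3 and at -34 to -29 in KLK2, and on the plus strand at -30 to -25 in a KLK15 window. They occurred in 11.5% of all windows on either strand. These matches describe letters and were not measured as bound sites.

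Expression is given as RPKM, read number scaled to transcript length and library size, so levels of genes of different length can be set side by side. Estimated from the steps between low values, the libraries held 6.86 to 19.2 M reads (M, mega), with the R1881 libraries at 13.5 M or more and the other 6 at 12.3 M or less. Between 15914 and 16822 entries were above 0 per library. Luminal markers were abundant: KRT8, a simple-epithelium keratin, averaged 87.8 RPKM in vehicle, 495 in R1881 and 87.4 with MEL-6, and FOLH1, which encodes prostate-specific membrane antigen, averaged 429, 138 and 373. The 12 markers of basal, neuroendocrine, stromal and immune cells summed to between 4.16 and 5.34 RPKM, mostly from CD68, and KRT5, TP63, COL1A2, PTPRC and CD3E were at 0 in every library. In RNA from whole wells, fewer cells of a type and less RNA per cell cannot be told apart, and the p-values measure the spread between these replicate wells only.

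KLK3 was the dominant kallikrein in every group. KLK3 (chr19:51358171-51364020 on GRCh37, as all gene coordinates from here on) encodes a chymotrypsin-like protease that cuts the semenogelins of the semen gel. Its level was 328, 325 and 270 RPKM in the vehicle libraries, 2153, 2268 and 2238 in R1881, and 611, 624 and 623 with MEL-6. No library of one group reached the range of another. By level KLK3 ranked 104 to 132 from the top among all entries in vehicle, 3 in each R1881 library, and 45 to 54 with MEL-6.

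On the log2(RPKM + 0.5) scale, R1881 raised KLK3 by 2.85 ± 0.076 (SE), or 7.23-fold, with an adjusted p of 8.42e-10 in limma's test over all 13295 tested genes. MEL-6 lowered it from the R1881 level by 3.58-fold (log2 change -1.84 ± 0.076, limma adjusted p = 2.75e-08). KLK3 was still 2.02-fold above vehicle with MEL-6 (log2 change 1.01 ± 0.076, limma adjusted p = 4.98e-06). In size, the R1881 change was number 37 of the 13295 from the largest rise, and the change with MEL-6 number 85 from the largest fall.

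KLK2 had the largest changes of the locus. KLK2 (chr19:51376689-51383823) encodes a trypsin-like protease that can activate the precursor of prostate-specific antigen in vitro. Its level was 21.3, 21.9 and 16.7 RPKM in vehicle, 324, 336 and 312 in R1881, and 69.8, 69.3 and 65.4 with MEL-6. The 3 groups were again fully separate, and the lowest vehicle library for KLK2, replicate 3, was also the lowest for KLK3. From a rank of 3682 to 4658 in vehicle, KLK2 came to rank 110 to 123 with R1881, and 883 to 1020 when MEL-6 was present.

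R1881 raised KLK2 16.0-fold (log2 change 4.0 ± 0.090, limma adjusted p = 2.91e-10), which was number 7 of 13295 from the largest rise. MEL-6 lowered it 4.73-fold from that level (log2 change -2.24 ± 0.090, limma adjusted p = 2.24e-08). What was left was 3.38-fold above vehicle (log2 change 1.76 ± 0.090, limma adjusted p = 4.40e-07).

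Reads that fit both KLK3 and KLK2 could not be split with certainty by the authors' counting, whose rule is not given in the sources used here. In the GENCODE v29 transcripts the genes were identical at 1179 of 1410 aligned bases (83.6%). Of all 36-base stretches of the KLK3 transcript 2.66% also occurred in KLK2, and of all 75-base stretches none did. Every other pair of the 5 transcripts shared no 36-base stretch. The read length was not stated.

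KLK4 answered to R1881 as well but gave way little when MEL-6 was added. KLK4 (chr19:51409608-51413994), also called prostase, encodes a trypsin-like protease best known for processing the enamel matrix of teeth. It stood at 48.8, 43.1 and 44.2 RPKM in vehicle, 128, 136 and 139 in R1881, and 109, 101 and 102 with MEL-6. The groups did not overlap, and the MEL-6 libraries lay nearer to R1881 than to vehicle. KLK4 was above KLK2 in every vehicle and MEL-6 library and below it in every R1881 library.

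The rise of KLK4 with R1881 was 2.94-fold (log2 change 1.56 ± 0.060, limma adjusted p = 1.42e-08). With MEL-6 it fell by 0.37 ± 0.060 on the log2 scale, a 1.29-fold decrease (limma adjusted p = 4.91e-04), and it remained 2.28-fold above vehicle (log2 change 1.19 ± 0.060, limma adjusted p = 4.27e-07). Its fall was number 1648 of 13295 in size, and its difference from vehicle with MEL-6 number 119 from the largest, ahead of KLK3 at number 189 and behind KLK2 at number 32.

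KLK15 was scarce. KLK15 (chr19:51328545-51334779) encodes a trypsin-like protease that can activate the precursor of prostate-specific antigen in vitro. Its level was 0.869, 0.308 and 0.327 RPKM in vehicle, 1.52, 0.908 and 1.07 in R1881, and 0.890, 0.804 and 0.688 with MEL-6. Every R1881 library was above every library of the other groups, while vehicle and MEL-6 overlapped through vehicle replicate 1. The steps of the values put these levels at about 13, 3 and 4 reads in vehicle, 28, 16 and 27 in R1881, and 8, 13 and 9.74 with MEL-6. The R1881 libraries were also the deepest, and the part of depth in the KLK15 values was not tested.

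The log2 change of KLK15 with R1881 was 0.76 ± 0.22 (1.70-fold, limma adjusted p = 0.0159). The adjusted p became 0.0588 without vehicle replicate 2, 0.0573 without vehicle replicate 3 and 0.0702 without R1881 replicate 1 in the same limma fit. KLK15 passed the filter in only 1 vehicle library, so its entry into the test leaned on the groups where it was high. With no filter and all libraries the limma adjusted p was 0.0286. With MEL-6 the log2 difference from R1881 was -0.35 ± 0.22 (limma adjusted p = 0.202), and that from vehicle was 0.41 ± 0.22 (limma adjusted p = 0.165), neither of which passed. Without vehicle replicate 1 the difference from vehicle was 0.66 (limma adjusted p = 0.0210).

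KLK1 was listed at 0 in all 9 libraries and was not tested. KLK1 (chr19:51322404-51327043) encodes tissue kallikrein, which releases kinin from kininogen. In its 866-base GENCODE transcript a count of 3 reads would be 0.180 to 0.505 RPKM at the estimated depths, which is the level that a count of 0 allows in a library, for counting error only.

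**Figure D1:**
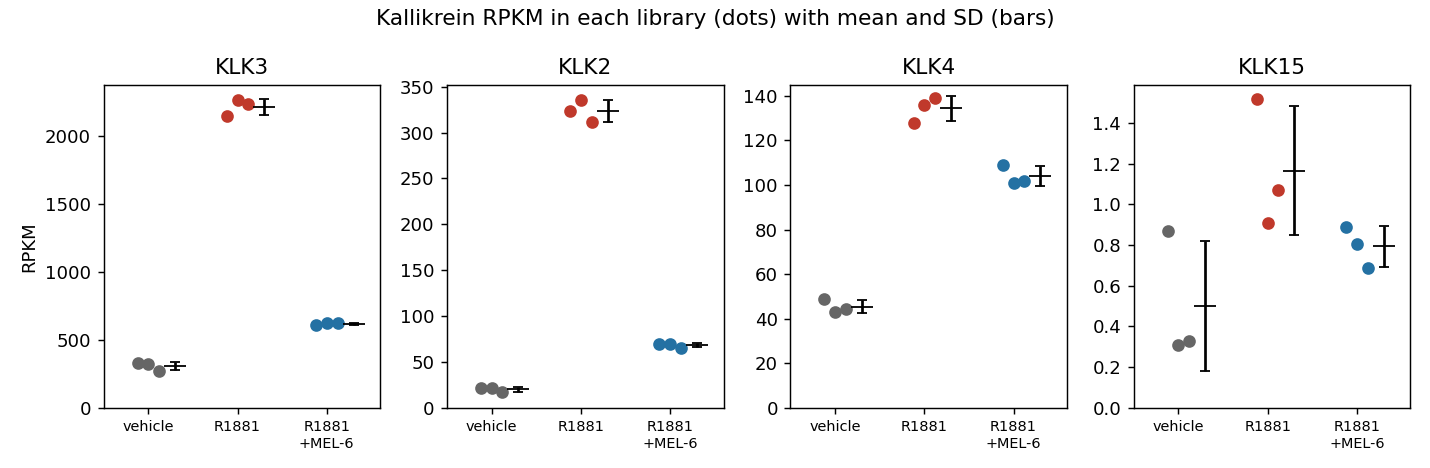
RPKM of KLK3, KLK2, KLK4 and KLK15 (y axis, linear, separate scale per gene) in each library of the vehicle, R1881 and R1881 with MEL-6 groups; dots are libraries, and bars beside them are the mean and SD of 3. R1881 libraries are highest in every panel, MEL-6 brings KLK3 to 619 and KLK2 to 68.1 RPKM on average, and KLK4 stays at 104.

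Of the 5 kallikreins, KLK3, KLK2 and KLK4 were above the filter of 0.5 RPKM in all 9 libraries, and KLK15 passed it in 1 vehicle library and in all R1881 and MEL-6 libraries, so its inclusion leaned on the groups where it was high. All 4 rose with R1881, where 14.5% of the 13295 tested genes were called higher, 31.3% were called lower and 18.0% had R1881 libraries wholly above vehicle. With MEL-6 against R1881, 3 of the 4 fell, beside 20.6% of tested genes called lower, 31.4% called higher and 23.9% with no overlap in that direction. With MEL-6 against vehicle, 3 of the 4 were higher, beside 17.2% of tested genes and 21.6% with no overlap. The median log2 change of all tested genes was -0.12, 0.075 and -0.012 in these comparisons in turn. The R1881 libraries enter both of the first comparisons, so a chance high or low R1881 value moves them in opposite directions.

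Summed over the locus, kallikrein RPKM was 374 ± 37.1 in vehicle (SD, n = 3), 2680 ± 67.2 in R1881 and 792 ± 2.79 with MEL-6. As a share of all RPKM in the library this was 0.104% ± 0.00998, 0.748% ± 0.0152 and 0.223% ± 0.00581. KLK3 made up 82.3%, 82.8% and 78.2% of the sum in the groups in turn. KLK2 made up 5.33% in vehicle and 12.1% in R1881, while KLK4 went from 12.2% to 5.01% and stood at 13.1% with MEL-6.

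The ratios between genes within a library give the same proportions without regard to library scaling. KLK3 was 15.5 ± 0.670 times KLK2 in vehicle (SD, n = 3), 6.85 ± 0.274 times in R1881 and 9.10 ± 0.393 times with MEL-6. The log2 ratio of KLK2 to KLK3 was 1.14 higher in R1881 than in vehicle and 0.40 lower with MEL-6 than in R1881, that is -2.77 ± 0.057 against -3.18 ± 0.062, and the 3 groups did not overlap. The exact permutation test of the F statistic over the 3 groups gave p = 0.00357 (adjusted p = 0.00536 over 6 pairs). That is the smallest p that this design allows. The test asks whether any group differs, here and for the other ratios, and does not test each shift by itself.

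KLK4 moved against both. The log2 ratio of KLK4 to KLK3 was -2.74 ± 0.15 in vehicle, -4.04 ± 0.035 in R1881 and -2.57 ± 0.077 with MEL-6 (exact permutation p = 0.0107, adjusted p = 0.0129). Vehicle and MEL-6 libraries overlapped in this ratio and the R1881 libraries lay apart. The log2 ratio of KLK4 to KLK2 was 1.17 ± 0.21, -1.27 ± 0.092 and 0.61 ± 0.054, with no overlap between groups (exact permutation p = 0.00357, adjusted p = 0.00536).

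The ratios that involve KLK15 rest on few reads. KLK15 to KLK3 and KLK15 to KLK2 differed between groups in the exact permutation test (adjusted p = 0.00536 for each), with R1881 lowest. For KLK15 to KLK4 the means were -5.56 ± 0.34 in vehicle, -6.35 ± 0.32 in R1881 and -6.34 ± 0.079 with MEL-6 (exact permutation p = 0.0321, adjusted p = 0.0321). With a pseudocount of 0.1 the adjusted p of that last ratio was 0.350.

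**Figure D2:**
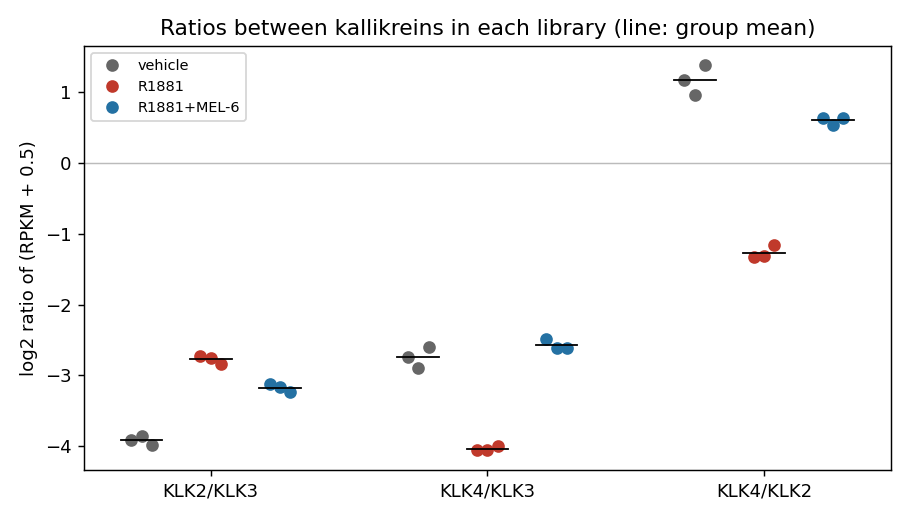
Log2 ratio of (RPKM + 0.5) between pairs of kallikreins (y axis) in each library, by group; dots are libraries and lines group means. KLK2 gains on KLK3 with R1881 and keeps part of that gain with MEL-6, while KLK4 falls against both with R1881 and comes back with MEL-6.

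How much of the androgen response survived MEL-6 was described on the linear scale, as the difference of each MEL-6 library from the vehicle mean divided by the difference of the R1881 mean from the vehicle mean. It was 15.9%, 16.6% and 16.5% for KLK3 and 16.4%, 16.2% and 14.9% for KLK2. For KLK4 it was 71.5%, 62.7% and 63.4%, well clear of both. For KLK15 it ranged from 28.1% to 58.5%. The mean was 16.3% ± 0.390 (SD, n = 3) for KLK3, 15.8% ± 0.784 for KLK2 and 65.8% ± 4.87 for KLK4, where the SD covers the MEL-6 libraries only. No test was made of these shares.

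**Figure D3:**
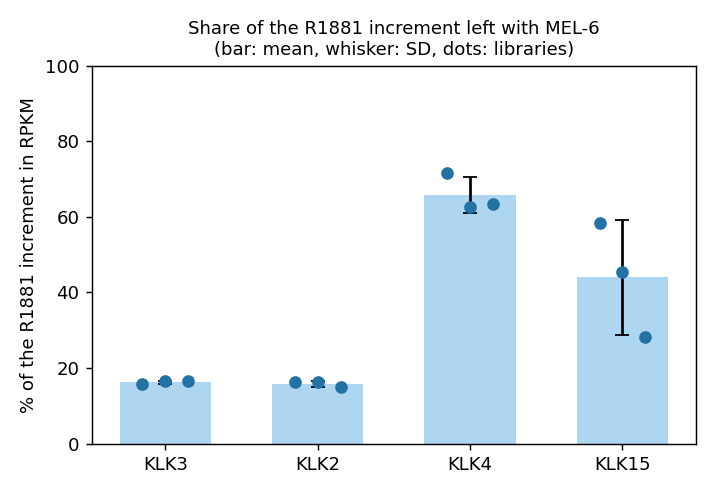
Share of the R1881 increment in RPKM that was present with MEL-6 (y axis, %) for the 4 detected kallikreins; bars are means, whiskers SD and dots the 3 MEL-6 libraries. KLK3 and KLK2 sit near 16%, KLK4 at 65.8% and KLK15 spreads from 28.1% to 58.5%.

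**Figure D4:**
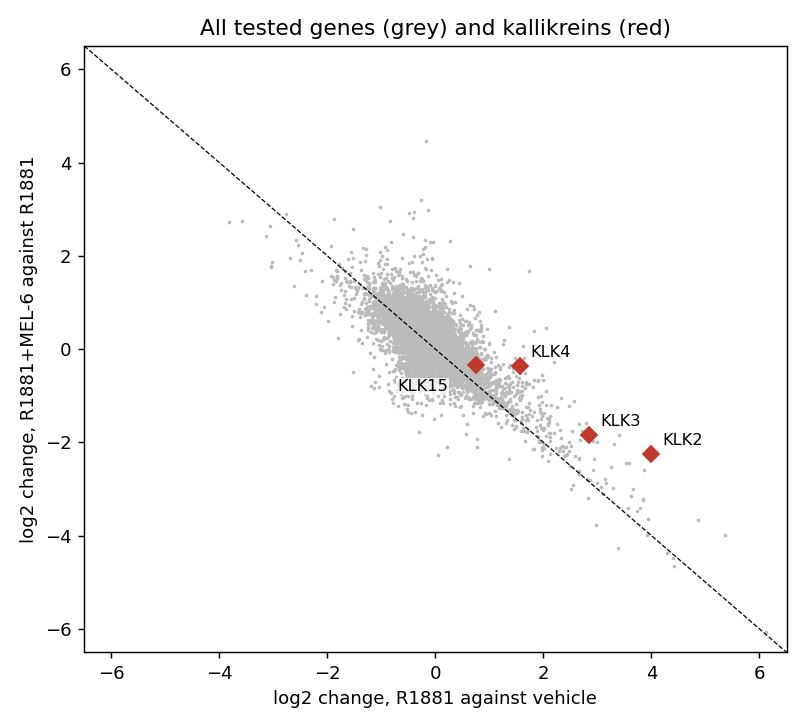
Fitted log2 change with MEL-6 against R1881 (y axis) and with R1881 against vehicle (x axis) for all 13295 tested genes (grey dots) and the 4 tested kallikreins (red diamonds); on the dashed line the level with MEL-6 equals that of vehicle. The axes share the R1881 libraries, which tilts the cloud by construction, and the 4 kallikreins lie above the line, with log2 differences from vehicle of 0.41 to 1.76.

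The genes with the most similar pair of changes were found by the distance between the fitted log2 changes for R1881 against vehicle and for MEL-6 against R1881, over the same 9 libraries. KLK3 was closest to C1orf113 (distance 0.0505, log2 changes 2.87 and -1.79), and its nearest 5 also held ELOVL7, a fatty acid elongase (0.158), MICAL1, an oxidase of actin (0.216), and GREB1, a hormone-induced gene (0.220). The SE of both KLK3 changes was 0.076, larger than the distance to C1orf113, so the order of these genes is not resolved. Within 0.2 KLK3 had 3 tested genes, and KLK2 had no tested gene. Their rises with R1881 were number 37 and number 7 of 13295, a size that few tested genes reach. The gene nearest to KLK2 was TMPRSS2, a membrane serine protease, at 0.380 with log2 changes of 3.86 and -2.60. PMEPA1 at 0.715 and SLC45A3, which encodes prostein, at 0.727 were also among the 5 nearest to KLK2.

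KLK4 had 10 tested genes within 0.2. The nearest were ERN1, the IRE1 sensor of unfolded protein in the endoplasmic reticulum (distance 0.0800), SIPA1L2 (0.0844), the transcription factor KLF15 (0.0917), the alcohol dehydrogenase ADH1C (0.131) and DNAJB9, a co-chaperone of the endoplasmic reticulum (0.148). The SE of both KLK4 changes was 0.060, close to the smallest of these distances, so the order of these genes is not resolved. ERN1 averaged 4.96 RPKM in vehicle, 15.2 in R1881 and 12.3 with MEL-6. KLK15 lay in a crowded region with 119 tested genes within 0.2, among them KIAA0355 (0.0226), PAQR6 (0.0325), DGKA (0.0369), MYCL1 (0.0403) and TMEFF2 (0.0411). The SE of both KLK15 changes was 0.22, larger than these distances, so its nearest genes are not resolved. With a pseudocount of 0.1 its log2 changes were 1.17 and -0.48, in place of 0.76 and -0.35.

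The locus has a pseudogene, KLKP1, between KLK2 and KLK4 (chr19:51385352-51399654). Its level was 2.40, 1.90 and 1.90 RPKM in vehicle, 4.37, 3.64 and 3.77 in R1881, and 2.85, 2.93 and 2.31 with MEL-6. R1881 libraries were above all others, and vehicle and MEL-6 overlapped. KLKP1 rose with R1881 (log2 change 0.79 ± 0.12, limma adjusted p = 3.71e-04) and fell with MEL-6 (-0.47 ± 0.12, limma adjusted p = 0.00689). The share of its R1881 increment left with MEL-6 was 33.7% ± 18.3 (SD, n = 3).

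The 10 kallikreins on the telomeric side were at or near 0. KLK5, KLK8, KLK9, KLK12 and KLK13 were at 0 in every library. KLK14, a trypsin-like kallikrein of skin, had the highest value among the others, 0.189 RPKM in vehicle replicate 3, and KLK6, KLK7, KLK10 and KLK11 were above 0 in 1 or 2 libraries each. None of the 10 reached the filter.

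Entries whose coordinates fell within 500 kb of the locus on either side numbered 51 besides the members, and 19 of them were tested. With R1881 6 rose and 3 fell, and with MEL-6 against R1881 3 rose and 6 fell. These counts include entries, NAPSB among them, whose R1881 libraries were all under the filter. Among the 6 that rose were KLKP1, C19orf48 and SNORD88B and SNORD88C, which lie inside C19orf48, so the 6 cannot be taken as independent genes. Over all tested genes 14.5% rose and 31.3% fell with R1881, and 31.4% rose and 20.6% fell with MEL-6. Their median log2 change was -0.048 with R1881 and -0.094 with MEL-6, beside -0.12 and 0.075 over all tested genes. C19orf48, at chr19:51300961-51307974 just centromeric of KLK1, was the most abundant of those that rose, with 114 ± 8.79 RPKM in vehicle (SD, n = 3), 223 ± 7.11 in R1881 and 155 ± 15.7 with MEL-6. Its log2 change was 0.96 ± 0.078 with R1881 (limma adjusted p = 4.05e-06) and -0.52 ± 0.078 with MEL-6 (limma adjusted p = 2.72e-04), and 37.8% ± 14.4 of its increment was left.

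The entries of the small nucleolar RNA genes SNORD88A, SNORD88B and SNORD88C lie inside C19orf48. How reads were divided between them and the host is not given, so their values cannot be taken as independent of it. VSIG10L, an immunoglobulin-domain gene on the telomeric side, rose with R1881 (log2 change 0.71, limma adjusted p = 2.24e-04) and fell with MEL-6 (-0.61, limma adjusted p = 4.92e-04), and kept 11.2% ± 4.34 of its increment. POLD1, the catalytic subunit of DNA polymerase delta, fell both with R1881 (log2 change -0.44 ± 0.11, limma adjusted p = 0.00802) and again with MEL-6 (-0.41 ± 0.11, limma adjusted p = 0.0108). NAPSB, a pseudogene of the aspartic protease napsin, had log2 changes of -0.54 with R1881 and 0.54 with MEL-6 against R1881. Its R1881 libraries, at 0.218, 0.281 and 0.372 RPKM, were all under the filter of 0.5 RPKM. NAPSB had passed the filter through vehicle and MEL-6 libraries alone, so the tests are not support for either change and no p-value is given. Both calls were lost when R1881 replicate 1 or 2 was left out.

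**Figure D5:**
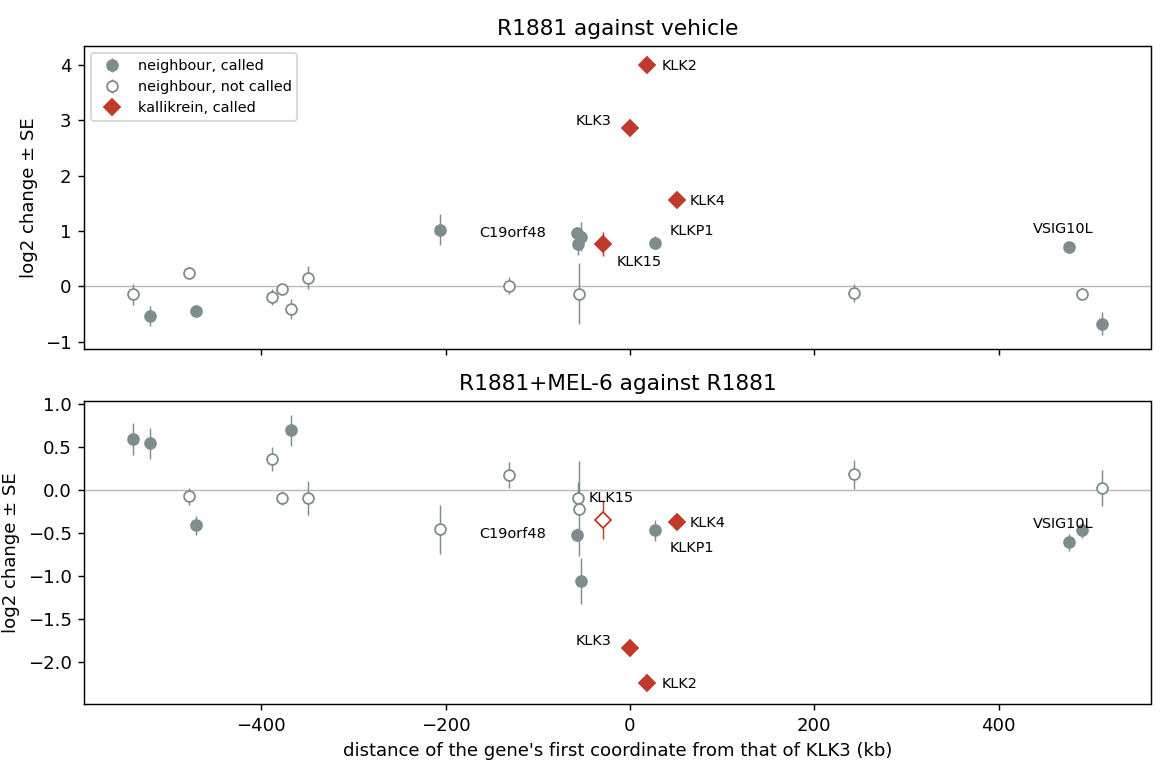
Log2 change ± SE (y axis) of the tested genes within 500 kb of the kallikrein locus, by distance in kb from the first coordinate of KLK3 (x axis), for R1881 against vehicle (top) and R1881 with MEL-6 against R1881 (bottom); red diamonds are kallikreins, grey circles neighbours, and filled symbols passed the test. KLK3 and KLK2 stand at 2.85 and 4.0 in the top panel and at -1.84 and -2.24 in the bottom panel, beyond every neighbour drawn.

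Among 7 transcription factors known to act at kallikrein genes, all passed the filter, 3 rose and 4 fell with R1881, and 1 rose and 2 fell with MEL-6 against R1881. Beside these stand 14.5% higher and 31.3% lower with R1881, and 31.4% higher and 20.6% lower with MEL-6, over all tested genes, so the counts with MEL-6 are not far from the background. The median log2 change over the 7 was -0.24 and -0.048 in turn, against -0.12 and 0.075 over all tested genes.

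SPDEF, an ETS factor that binds the KLK3 promoter, went from 42.2, 39.8 and 40.3 RPKM in vehicle to 220, 206 and 236 in R1881 and to 43.4, 51.2 and 58.3 with MEL-6. It rose by 2.42 ± 0.094 with R1881 and fell by 2.11 on the log2 scale with MEL-6 (limma adjusted p = 1.52e-08 and 5.10e-08). GATA2, which acts at the KLK3 enhancer, moved the other way, from 52.7 to 24.6 RPKM on average with R1881 and to 56.3 with MEL-6 (limma adjusted p = 7.26e-07 and 3.60e-07). With MEL-6 against vehicle the log2 difference was 0.31 for SPDEF (limma adjusted p = 0.0256) and 0.094 for GATA2 (limma adjusted p = 0.322), beside the 1.19 of KLK4. The SPDEF difference failed the threshold in 5 of 17 alternative fits.

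FOXA1, a pioneer factor that opens chromatin, averaged 202, 222 and 215 RPKM in the groups in turn. Its rise with R1881 was 0.13 ± 0.050 on the log2 scale (limma adjusted p = 0.0494) and failed the threshold in 8 of 17 alternative fits. The homeobox factor HOXB13 fell slightly with R1881 (log2 change -0.24 ± 0.072, limma adjusted p = 0.0206), a call that 4 of 17 alternatives lost, median-of-ratios scaling among them. POU2F1, also called OCT1, fell by 0.47 on the log2 scale with R1881 (limma adjusted p = 0.0112).

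Of 10 genes for inhibitors of kallikreins, 5 were at 0 in every library and 1 was tested. That gene, SERPINA3, encodes alpha-1-antichymotrypsin, the serpin that binds most prostate-specific antigen in blood. It was at 0.275, 0.254 and 0 RPKM in vehicle, 0.0894, 0.280 and 0.327 in R1881, and 1.10, 1.63 and 0.989 with MEL-6. All MEL-6 libraries were above all others, and the log2 difference from R1881 was 1.25 ± 0.23. SERPINA3 had passed the filter through the MEL-6 libraries alone, so its entry into the test depended on its level there. Neither the separation nor the test is therefore support for a rise, and no p-value is given.

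Of 11 genes for kallikrein substrates or proteins they activate, 4 were tested, of which 2 rose and 1 fell with R1881 and 2 rose and 2 fell with MEL-6 against R1881. Of all tested genes 14.5% were higher and 31.3% lower with R1881, and 31.4% higher and 20.6% lower with MEL-6, so 1 of 4 lower with R1881 is near the background. The median log2 change of the 4 was 0.34 and 0.042 in turn, against -0.12 and 0.075 over all tested genes. FN1, fibronectin, which prostate-specific antigen can cut, averaged 18.6 ± 2.33 RPKM in vehicle, 4.89 ± 0.110 in R1881 and 15.1 ± 0.876 with MEL-6 (SD, n = 3). It fell by 1.82 and then rose by 1.53 on the log2 scale (limma adjusted p = 6.88e-08 and 2.45e-07), the reverse of KLK3.

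IGFBP3, an insulin-like growth factor carrier that prostate-specific antigen cuts, rose at each step, from 2.97 to 5.73 RPKM with R1881 and to 7.65 with MEL-6 (limma adjusted p = 4.16e-05 and 0.00539). F2RL1 encodes PAR2, a receptor that trypsin-like kallikreins can activate. It rose from 9.67 RPKM in vehicle by 0.51 on the log2 scale with R1881 and fell to 9.79 with MEL-6 (limma adjusted p = 4.56e-04 and 4.30e-04). ST14, the membrane protease matriptase, averaged 45.2 RPKM in vehicle, 51.0 in R1881 and 41.3 with MEL-6, and passed only for the fall with MEL-6 (log2 change -0.30 ± 0.083, limma adjusted p = 0.0111). SEMG1 and SEMG2, the semenogelins, had traces of at most 0.112 RPKM and were not tested.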

How the data were processed

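Each library's group and number come from its title, and the columns of the table were assigned through the library names that the descriptions hold. Libraries were made from polyadenylated RNA with a TruSeq RNA kit after column purification, per the labels' protocols, and strand is not stated. The authors deposited 1 RPKM value per gene and library, on GRCh37 with CASAVA 1.8 per the submitters' processing notes. The aligner, annotation and read length are not given in the sources used here. From these values log2(RPKM + 0.5) was fitted with limma-trend (limma 3.58.1 in R 4.3.3) for all 9 libraries in one model of 3 group means. Testing was limited to the 13295 entries that reached 0.5 RPKM in 3 or more libraries, and p-values were two-sided and adjusted by the Benjamini-Hochberg method over them, with calls at an adjusted p under 0.05. Because of the added 0.5, fold changes of scarce genes such as KLK15 are understated. The code was tested on simulated data. RPKM hides the read numbers. They were estimated from steps between low values, found in 929 of 2443 low genes examined. Of these, 663 had a length, taken as the joined exons of the gene in GENCODE v29. The depth used was the most common estimate, and 101 of the 663 lay within 2% of it, so depths are approximate. Counting error is covered only through the spread between replicates.

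The members and lists were chosen with earlier results of these data known, so counts over them are descriptions and no list was tested. Genes named were the 5 members, up to 4 called members of each list per comparison, other kallikreins with at least 0.5 RPKM in any library, neighbours called in both comparisons with R1881, and the 5 genes nearest to each tested member in their pair of changes. KRT8, FOLH1, CD68, the scarce kallikreins and the semenogelins were named after their values were seen. Some genes that these rules give are not reported here. Alternatives were pseudocounts of 0.1 and 1, no filter or a filter of 1 RPKM, median-of-ratios and upper-quartile scaling, a replicate block, a fit of only the groups compared, and leaving out each library. Deviations of same-numbered libraries correlated between -0.197 and 0.198, so the numbers were not treated as pairs. Promoter sequences are from RefSeq on GRCh38.p14, and no coordinates were converted between builds.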

Additional observations from a re-analysis of the deposited data

How the results depend on the processing

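The calls of KLK3, KLK2 and KLK4 held in all 17 alternative fits of each comparison. Their log2 changes ranged from 2.76 to 2.98, 3.88 to 4.12 and 1.52 to 1.68 with R1881 and from -1.94 to -1.82, -2.34 to -2.21 and -0.47 to -0.34 with MEL-6 against R1881. With the replicate block the counts of called genes were 5648, 6557 and 4503, against 6085, 6912 and 5051 without it, for R1881 against vehicle, MEL-6 against R1881 and MEL-6 against vehicle, and no kallikrein call changed, the log2 change of KLK15 with R1881 being 0.76 (limma adjusted p = 0.00646).

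KLK15 rests on few reads and was the least stable member. Leaving out 1 library at a time gave log2 changes of 0.61 to 1.01 with R1881, -0.46 to -0.20 with MEL-6 against R1881 and 0.28 to 0.66 with MEL-6 against vehicle. With a filter of 1 RPKM it was not tested. The log2 ratio of KLK15 to KLK4 differed by -0.80 between R1881 and vehicle and by 0.018 between MEL-6 and R1881. With a pseudocount of 0.1 these were -0.40 and -0.11, and leaving out 1 library gave -0.98 to -0.60 and -0.10 to 0.20.

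Scaling changed the split of calls over all genes. Of called genes 68.3% were lower with R1881 as deposited, 47.7% with median-of-ratios scaling and 60.8% with upper-quartile scaling, and for MEL-6 against R1881 the shares were 39.6%, 53.7% and 42.8%. The median log2 change of all genes with R1881 went from -0.12 to -0.0100 under median-of-ratios scaling. That scaling gave a kallikrein sum of 2821 RPKM in R1881 and 778 with MEL-6, and increments left of 15.2% for KLK3, 14.8% for KLK2 and 59.6% for KLK4. Leaving out 1 library gave 15.5% to 16.7% for KLK3 and 34.5% to 60.0% for KLK15. The causes of these shifts were not tested.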
